A study of Mus musculus with 10 samples.

Results

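The genes described here are the Toll-like receptors Tlr2, Tlr3, Tlr4, Tlr9, Tlr11, Tlr12 and Tlr13, the chaperone Unc93b1 and the adaptors Myd88 and Ticam1, in CD8+ cDC1 of the spleen. They were taken by symbol from the deposited table of normalized RNA-sequencing counts, in which all 10 of the 10 genes were found among 10767 genes. CD8+ cDC1 are conventional dendritic cells that take up dying cells and cross-present their antigens to CD8+ T cells. Ppef2 is a phosphatase with calcium-binding EF hands.

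The cells came from spleens of untreated Ppef2+/+ and Ppef2-/- mice, 8 to 13 weeks old, and were gated on CD11c, MHCII and CD8 without CD11b. The Ppef2-/- mice carry a gene trap in all cells of the body, made in embryonic stem cells and crossed to C57BL/6. They are therefore no model of a loss confined to DCs. There were 5 sorts, each with 1 Ppef2+/+ and 1 Ppef2-/- library, and each library came from 3 pooled mice, so that differences between single animals cannot be seen. The labels give the genotype. The sorts are numbered here in the order of the samples, and the equal sums described below join the same libraries into pairs.

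Toll-like receptors recognize conserved molecules of microbes. Tlr2 and Tlr4 act at the cell surface, where Tlr2 binds lipoproteins and Tlr4 binds lipopolysaccharide. Tlr3, Tlr9, Tlr11, Tlr12 and Tlr13 signal from endosomes, to which the membrane protein Unc93b1 carries them. Tlr3 senses double-stranded RNA, Tlr9 senses DNA with unmethylated CpG, Tlr13 senses bacterial ribosomal RNA, and Tlr11 and Tlr12 sense profilin of apicomplexan parasites. Myd88 is the adaptor of the receptors named here other than Tlr3. Ticam1, also called TRIF, is the adaptor of Tlr3 and of Tlr4 after its uptake. CD8+ cDC1 are known for high Tlr3, Tlr11 and Tlr12 and for the lack of Tlr7.

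All values are normalized counts, that is, read counts per gene divided by a size factor for the library. The sum of both libraries of a sort was equal in the 5 sorts, to within a relative spread of 6.28e-06, in each of 10721 genes (the other 46 have a value at the floor of 1). Sort means are thus missing from the deposited values, and a library that lies above the mean of its genotype is mirrored by a library below it in the other genotype. Whole reads could be calculated back for 9618 genes, among them Tlr2, Tlr4, Tlr9, Tlr12, Tlr13, Myd88 and Ticam1. Over these genes the libraries held 1396242 to 2273444 reads in Ppef2+/+ and 1508150 to 4409258 reads in Ppef2-/-, and the Ppef2-/- library of sort 1 was 2.95 times as deep as its partner. Ppef2 itself had 95 to 228 reads per library in Ppef2+/+ and 0 to 8 in Ppef2-/-, as the labels say. All 12 of the 12 cDC1 markers listed were in the table, with Cd8a at a mean of 5684 normalized counts, Xcr1 at 3739 and Clec9a at 4444. Of the markers of other cells, 1 of 7 for T cells, 2 of 6 for neutrophils and 7 of 8 for cDC2 were in the table. The B cell markers Ms4a1, Cd22 and Cd79b were present, at a mean of 144, 92.7 and 28.7 normalized counts. Cd3e, which defines T cells, and Ly6g, which defines neutrophils, were not.

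The levels of the Toll-like receptors were very uneven. To compare genes, normalized counts were divided by the length of the longest principal transcript (APPRIS, GENCODE M21) and are given per kb as the mean ± SD of 10 libraries. Here and below, SDs of deposited values leave out the differences between sorts, as the sort means are missing. For Tlr13 in Ppef2+/+ the SD was 19.7 normalized counts in the deposited values and 120 with the sort means put back. Tlr11 was the highest of the receptors, with 724 ± 18.5 normalized counts per kb. Tlr3 followed with 434 ± 20.9 per kb and Tlr12 with 247 ± 14.2 per kb. The receptors for double-stranded RNA and for profilin thus led the order. Tlr9 had 124 ± 5.89 per kb, Tlr13 had 115 ± 4.60 per kb, and Tlr2 had 78.6 ± 3.98 per kb. Tlr4 was the lowest member, with 9.82 ± 2.94 per kb.

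The order of neighbouring members was the same in 10 of 10 libraries except for Ticam1 and Tlr2, which kept their order in only 5 of them. With the sort means put back, as described below, Tlr9 was above Tlr13 in 8 of 10 libraries, Tlr13 above Ticam1 in 7, and Tlr12 above Myd88 in 9. The order within these 4 pairs of neighbours was thus not the same in every library. Tlr3, Tlr11 and Unc93b1 could not be compared in this way, as their reads were not solved. The ranks of all 10 members were the same when the union of all annotated exons was taken as the length.

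Of the accessory proteins, Unc93b1 was the highest of all members, with 2406 ± 131 normalized counts per kb, 3.32 times the level of Tlr11. Its 5451 normalized counts put it at rank 95 of the 10767 genes, where these ranks are not per length. Myd88 had 216 ± 11.1 per kb and Ticam1 had 79.6 ± 4.72 per kb. The adaptor shared by most receptors was thus present at a level between those of Tlr12 and Tlr9, and the adaptor of Tlr3 at a level close to that of Tlr2.

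The other receptors of the mouse family were low or missing. Tlr1, which pairs with Tlr2, had 24.9 ± 2.71 normalized counts per kb, and Tlr6, its other partner, had 12.0 ± 1.10 per kb. Tlr5, the receptor for flagellin, had 17.1 ± 3.34 per kb. Tlr7, which senses single-stranded RNA, had 12.3 ± 1.86 per kb. Tlr7 and Tlr6 changed places in 5 of 10 libraries and Tlr6 was above Tlr4 in 7, so that the order among these low receptors was not fixed. Tlr8 was not in the table. As the authors removed genes with a mean under 10 in both genotypes, nothing is said here about its absence from the cells.

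**Figure D1:**
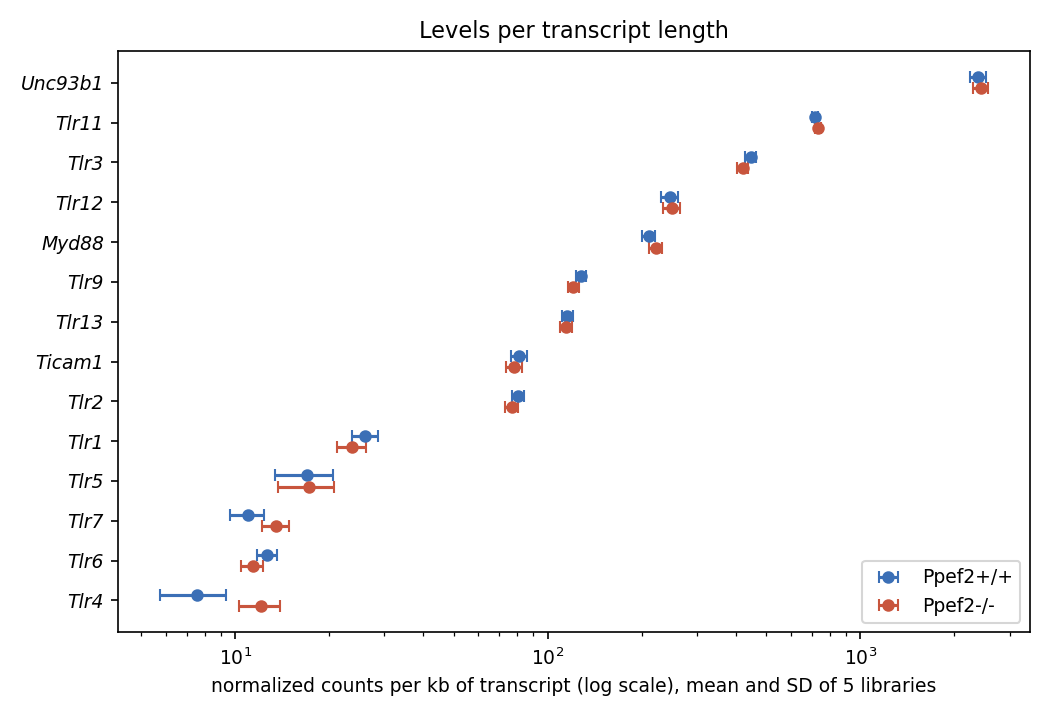
Normalized counts per kb of transcript on a log scale for the 10 members and for Tlr1, Tlr5, Tlr6 and Tlr7, with the mean (points) and SD (bars) of 5 libraries of each genotype. Unc93b1 stands at 2406 per kb and Tlr4 at 9.82 per kb over all libraries, and the Ppef2+/+ and Ppef2-/- points lie close together except for Tlr4 and Tlr7.

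The comparison of Ppef2-/- with Ppef2+/+ CD8+ cDC1 asks whether loss of the phosphatase changes the transcripts for microbial sensing. None of the 10 members passed an adjusted p of 0.05 in limma, the test across all genes on log2(normalized count + 1), where 0.957% of all genes passed. The same held when the sort was a term of the model, where 0.00929% of all genes passed. That percentage is 1 gene, Ppef2. At an unadjusted p under 0.05, 2 of 10 members (Tlr3 and Tlr4) were called, compared to 17.5% of all genes, and with the sort as a term 1 of 10 (Tlr4), compared to 4.29%. The mean was higher in Ppef2-/- for 5 members and lower for 5. The ratio of the genotype means was within 10% of 1 for 9 of 10 members and for 75.5% of all genes. The median log2 fold change, here and below Ppef2-/- over Ppef2+/+, was 0.0045 over the members and 0.00089 over all genes.

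Because the sort means had been removed, the fit without a term for the sort gives errors that are too small. With the term, the standard errors of the members were 1.23 to 1.90 times as large. The 95% intervals of the fold from that fit are used below to say how large a difference the data still allow. Over the 9 members other than Tlr4 they lay between 0.845 and 1.17.

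**Figure D2:**
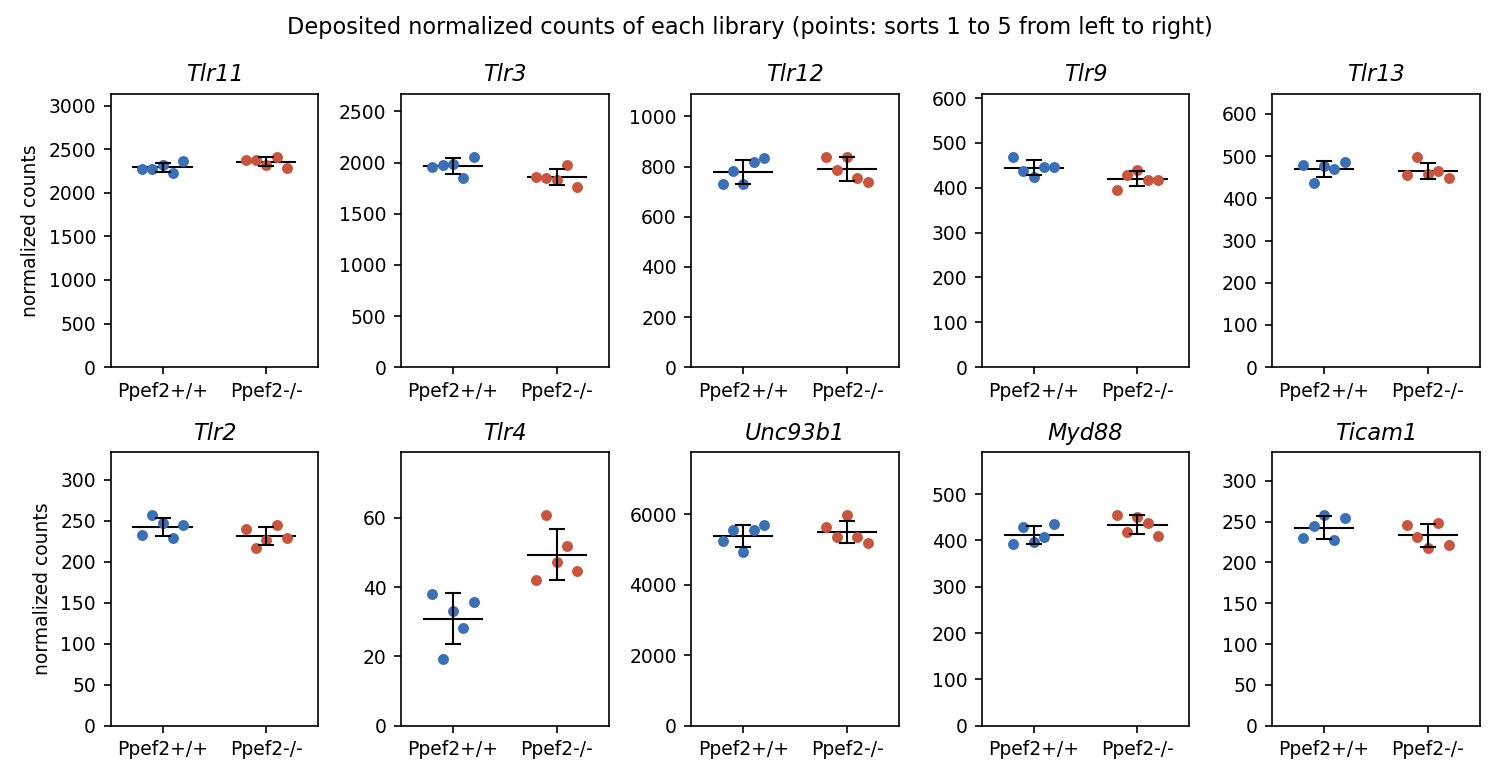
Deposited normalized counts of the 10 members in every library, with Ppef2+/+ in blue and Ppef2-/- in red, sorts 1 to 5 from left to right, and the mean ± SD of 5 libraries in black. All axes start at 0, and the genotypes are apart only for Tlr4, at 19.3 to 38.0 in Ppef2+/+ and 42.1 to 60.8 in Ppef2-/-.

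Tlr4 had the largest difference of the members. For Ppef2+/+ its normalized counts were 38.0, 19.3, 33.0, 28.2 and 35.6 in sorts 1 to 5, against 42.1, 60.8, 47.1, 51.9 and 44.5 for Ppef2-/-. All 5 Ppef2-/- libraries were above all 5 Ppef2+/+ libraries. It was the only 1 of 10 members without overlap, compared to 6.18% of all genes, and the only one with 1 direction in 5 of 5 sorts, compared to 6.19%. Without sort means, these are nearly the same statement. The means were 30.8 ± 7.38 and 49.3 ± 7.38 (SD, n = 5), a ratio of 1.60, and 0.789% of all genes had a ratio of 1.5 or more. The log2 fold change was 0.69 (SE 0.17) with an unadjusted p of 0.0014 and an adjusted p of 0.076 in limma. With the sort as a term, the unadjusted p was 0.0055 and the adjusted p 0.995, and the fold had a 95% interval of 1.17 to 2.21. By exact permutation of the genotype means, two-sided, p was 0.0079, the smallest that 5 against 5 libraries can give. This p is too small, as the removed sort means tie the 2 libraries of a sort together. All genes without overlap, 6.18% of the whole, reach it. When libraries were exchanged only within sorts, the exact p was 0.063, which is also the smallest that 5 sorts can give. Tlr4 (chr4:66827584-66842800 on the plus strand of mm10, 3 exons) did not overlap another gene's exons.

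The read numbers behind Tlr4 were small. Sorts 1 to 5 held 33, 29, 13, 28 and 24 reads for Ppef2+/+ and 106, 137, 36, 47 and 24 for Ppef2-/-, 477 in all, and the sorts with the most Ppef2-/- reads were those with the deepest Ppef2-/- libraries. Corrected for depth, the ratio of Ppef2-/- to Ppef2+/+ within sorts 1 to 5 was 1.09, 2.05, 1.73, 1.92 and 1.38. The exact 95% counting interval lay above 1 in sort 2 (1.36 to 3.17) and in sort 4 (1.18 to 3.18), and held 1 in the other 3 sorts. With the sort means put back, Tlr4 was at 45.2, 39.5, 19.5, 25.9 and 23.9 normalized counts in Ppef2+/+ and at 49.2, 80.9, 33.7, 49.7 and 32.9 in Ppef2-/-. The genotypes then overlapped, at 30.8 ± 10.97 and 49.3 ± 19.5 (n = 5, exact permutation p = 0.0952). That p ignores the pairs and takes in the spread between sorts, so that it can be too large. Within each sort the Ppef2-/- library remained the higher one, since a mean taken from both libraries leaves their difference as it was. Limma's voom on the whole reads with the sort as a term gave a log2 fold change of 0.66 (SE 0.21) and an adjusted p of 0.83.

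Tlr4 is also made by macrophages and monocytes, and in these bulk libraries more cells of a type and more RNA per cell cannot be told apart. Of the 14 symbols listed for macrophages and monocytes, 11 were in the table, with Lyz2 at a mean of 795 and Cd68 at 790 normalized counts, and Adgre1 and the C1q genes at 26.4 to 43.1. Fcgr1 and Mertk were not in the table. The sum of the list ranged from 2650 to 2945 normalized counts in Ppef2+/+ and from 2612 to 2907 in Ppef2-/-. This sum, of which Lyz2 and Cd68 made up a large part, was higher in Ppef2-/- in 2 of 5 sorts. Ly6c2, a marker of monocytes, was at 67.3 normalized counts in Ppef2+/+ and 49.7 in Ppef2-/-. In limma its unadjusted p was 0.027 (0.039 with the sort as a term) and its adjusted p 0.22. No other marker of the list had an unadjusted p under 0.05. The means of Csf1r (261 and 280), Vcam1 (221 and 233), Adgre1, C1qa and C1qc were higher in Ppef2-/-. Those of Lyz2 (810 and 780), Cd68 (805 and 775), C1qb and Spic were lower, and Hmox1 was at 474 in both. The sum of the 3 B cell markers in the table was higher in Ppef2-/- in 4 of 5 sorts, at means of 261 and 270. None of these 3 had an unadjusted p under 0.05 in limma. The sum of the cDC2 markers was higher in 2 of 5 sorts. The part of any of these cells in the difference of Tlr4 was not tested.

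Tlr3 tended to the other side. In sorts 1 to 5 it was at 1962, 1972, 1991, 1847 and 2058 normalized counts for Ppef2+/+ and at 1861, 1851, 1832, 1976 and 1765 for Ppef2-/-. It was lower in Ppef2-/- in 4 of 5 sorts, sort 4 being the exception, and the ranges overlapped. The means were 1966 ± 76.4 and 1857 ± 76.4, a difference of -5.53%. The log2 fold change of -0.08 (SE 0.03) had an unadjusted p of 0.036 and an adjusted p of 0.25, and the unadjusted p was 0.14 with the sort as a term. The 95% interval of the fold was 0.875 to 1.02. Tlr3 (chr8:45395665-45410619, minus strand, 7 exons) shares 117 bp of its exons with Gm45542 on the opposite strand, and the library kit does not keep the strand, so that reads of both cannot be told apart there. Its adaptor Ticam1 (chr17:56269319-56276786, minus strand) had 243 ± 14.0 normalized counts in Ppef2+/+ and 233 ± 14.0 in Ppef2-/-. Ticam1 was lower in Ppef2-/- in 3 of 5 sorts, and the interval of its fold was 0.847 to 1.09.

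Tlr9 was lower in Ppef2-/- in 4 of 5 sorts as well. Its normalized counts were 469, 437, 424, 447 and 446 in Ppef2+/+ and 395, 428, 441, 417 and 418 in Ppef2-/-. Sort 1 had the widest gap and sort 3 went the other way. The means of 445 ± 16.7 and 420 ± 16.7 (n = 5) differed by -5.59%, with an exact permutation p of 0.0397 over all libraries and of 0.188 within sorts. The p over all libraries is too small here as well, for the reason given for Tlr4. In limma, the log2 fold change of -0.08 (SE 0.04) had an adjusted p of 0.29. From 4726 reads in all, the counting interval of the ratio excluded 1 only in sort 1, at 0.865 (0.770 to 0.973). With the sort means put back, the exact permutation p for Tlr9 was 0.571. This p ignores the pairs and takes in the spread between sorts, so that it can be too large. Tlr9 lies at chr9:106222598-106226883 (plus strand, 2 exons).

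Tlr9 is also a receptor of plasmacytoid DCs (pDCs), and 7 of the 8 pDC markers listed were in the table. The sum of these markers was lower in Ppef2-/- in 5 of 5 sorts, at 1271 to 1375 normalized counts in Ppef2+/+ and 1132 to 1234 in Ppef2-/-. Tcf4, a transcription factor of pDCs, was the marker of this list that passed the adjusted p, at 423 and 342 normalized counts (adjusted p 0.018 in limma without the sort and 0.711 with it). The lectin Siglech was at 157 and 131, with an adjusted p of 0.083. Of the other markers, Ccr9 was at 239 and 243, Spib at 171 and 175, and Bst2 at 284 and 275. Ly6d, at 25.9 and 16.7, and Klk1, at 13.2 and 8.19, were low markers with larger falls in proportion. Their unadjusted p in limma were 0.12 and 0.11. In counts, Tcf4 had the largest fall of the list and made up much of the lower sum. Tlr7, which pDCs also use, was higher in Ppef2-/- in 4 of 5 sorts, at 42.8 ± 5.29 and 52.8 ± 5.29 normalized counts. In limma its unadjusted p was 0.015 (0.11 with the sort as a term) and its adjusted p 0.17. A part of pDCs in the values of Tlr9 was not tested.

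Tlr11 and Tlr12, the profilin receptors, were close to equal between genotypes. Tlr11 (chr14:50357914-50363663, plus strand) was at 2268, 2271, 2323, 2231 and 2362 normalized counts in Ppef2+/+ and at 2378, 2375, 2323, 2415 and 2283 in Ppef2-/-. It was higher in Ppef2-/- in 3 of 5 sorts, nearly level in sort 3 and lower in sort 5. Its mean was 2.79% higher in Ppef2-/-, and the interval of the fold, 0.959 to 1.10, was among the narrowest of the members. Tlr12 (chr4:128615443-128618619, minus strand, 1 exon) was at 731, 783, 732, 818 and 833 in Ppef2+/+ and at 840, 788, 839, 753 and 738 in Ppef2-/-. The direction of Tlr12 differed between sorts by more than counting error. The ratio was 1.13 (1.03 to 1.23) in sort 1 and 1.17 (1.04 to 1.33) in sort 3, but 0.896 (0.807 to 0.994) in sort 5. Over the 5 sorts its means of 779 ± 47.3 and 792 ± 47.3 gave a fold with an interval of 0.924 to 1.12.

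Tlr13 and Tlr2 did not differ beyond the spread between sorts. Tlr13 (chrX:106143229-106160493, plus strand) had means of 469 ± 19.7 and 465 ± 19.7 normalized counts, the smallest difference of the members at 0.93% of the Ppef2+/+ mean. It was lower in Ppef2-/- in 4 of 5 sorts and 13.4% higher in sort 2, and the interval of its fold was 0.899 to 1.09. Tlr2 (chr3:83836272-83841767, minus strand) ranged from 229 to 257 in Ppef2+/+ and from 217 to 244 in Ppef2-/-. Its fold of 0.955 had an interval of 0.845 to 1.08, and none of the 5 counting intervals of Tlr2 excluded 1.

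Unc93b1, which the endosomal receptors need, was at 5256, 5545, 4925, 5545 and 5706 normalized counts in Ppef2+/+ and at 5646, 5357, 5977, 5357 and 5196 in Ppef2-/-. The Ppef2-/- library was the higher one in sorts 1 and 3 only, and the gap of 19.5% in sort 3 carried the higher mean. The means were 5396 ± 309 and 5506 ± 309, and the fold had an interval of 0.942 to 1.11. Myd88 ranged from 392 to 436 in Ppef2+/+ and from 411 to 454 in Ppef2-/-. It was higher in Ppef2-/- in sorts 1, 3 and 4, with means of 412 ± 19.6 and 434 ± 19.6 and an interval of the fold of 0.952 to 1.17. In sort 1 its ratio was 1.15 (1.01 to 1.31). Unc93b1 lies at chr19:3935186-3949340 (plus strand, 11 exons). Myd88 (chr9:119335934-119340041, minus strand, 6 exons) shares 223 bp of exon with Acaa1a on the opposite strand.

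**Figure D3:**
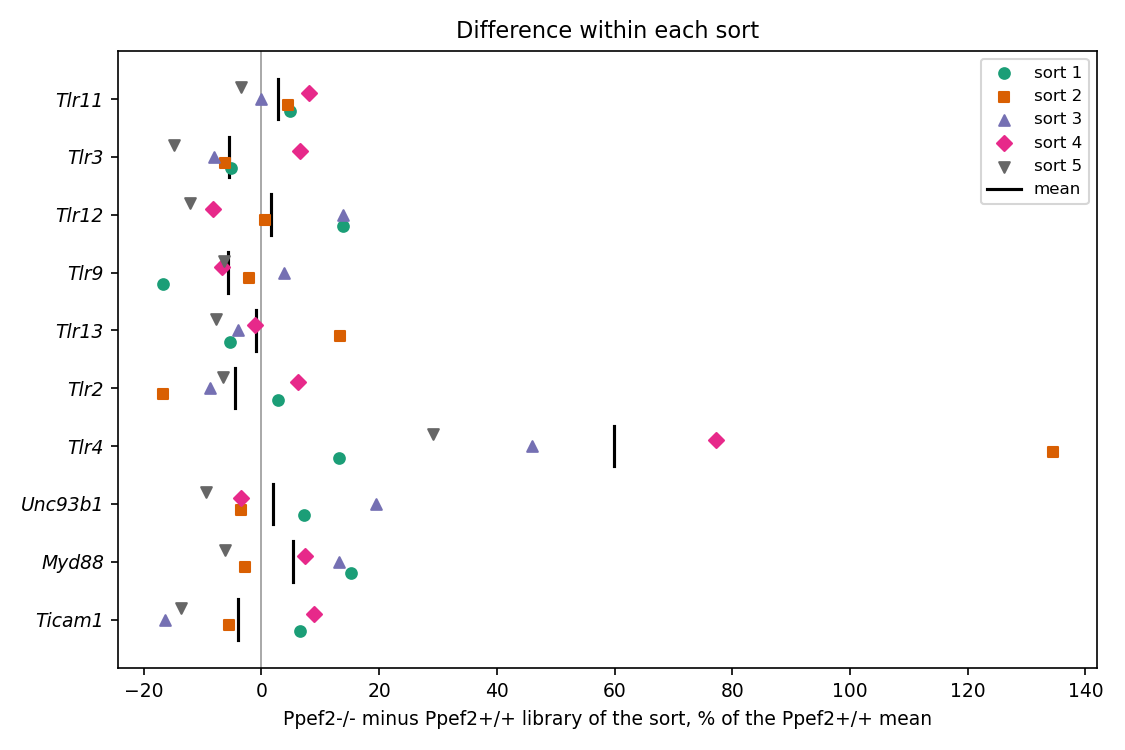
Ppef2-/- minus Ppef2+/+ library of each sort as percent of the Ppef2+/+ mean, with 1 symbol for each sort and the mean difference as a black bar. Tlr4 lies to the right of 0 in all 5 sorts, from 13.2 to 134%, and the other 9 members lie on both sides of 0.

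The direction of the members also differed from sort to sort. In sorts 1 to 5, 7, 4, 5, 6 and 1 of the 10 members were higher in Ppef2-/-, compared to 49.6, 49.0, 50.2, 52.3 and 50.2% of all genes. In sort 5 only Tlr4 was higher in Ppef2-/-. The Ppef2-/- library was the shallower one in sorts 4 and 5, and the part of depth in these directions was not tested. Of the 35 comparisons within sorts for the 7 members with whole reads, 7 had a counting interval without 1, compared to 18.3% of such comparisons over all genes with whole reads. These were 3 for Tlr12, 2 for Tlr4 and 1 each for Tlr9 and Myd88. PCR copies were not removed by molecular identifiers, so that these intervals cover counting error only.

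**Figure D4:**
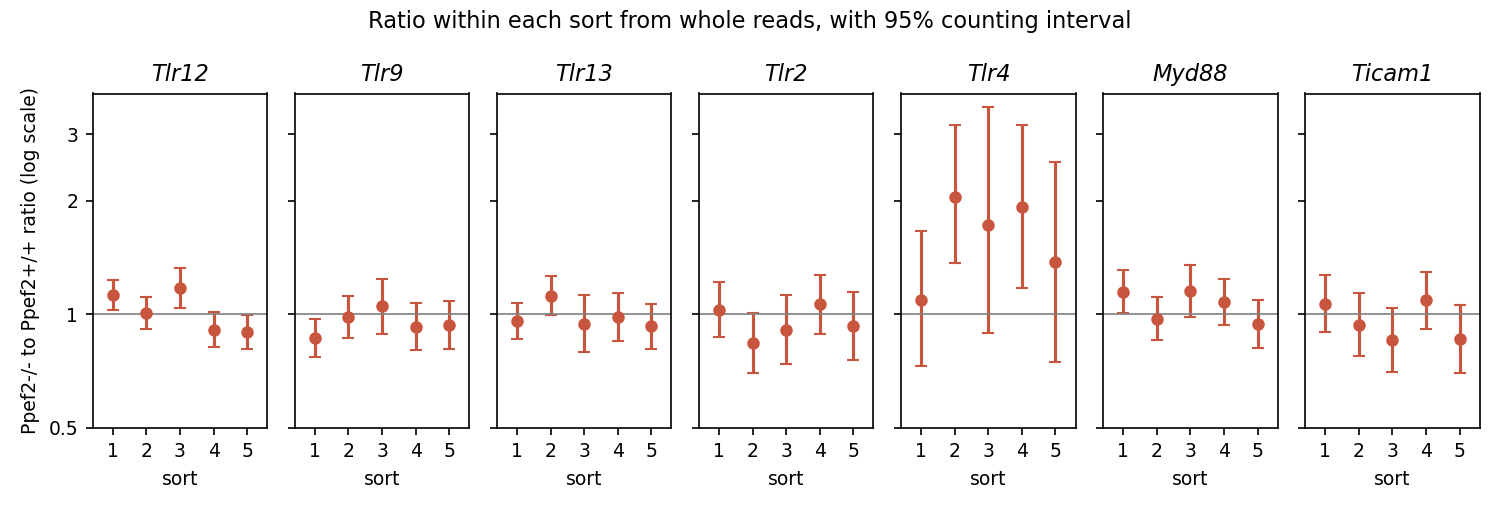
Ratio of Ppef2-/- to Ppef2+/+ within each sort on a log scale, from whole reads corrected for depth, with exact 95% counting intervals, for the 7 members with whole reads. The intervals of Tlr4 are wide and lie above 1 in sorts 2 and 4, and those of Tlr12 lie above 1 in sorts 1 and 3 and below 1 in sort 5.

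The whole reads also gave back the level of each sort. With the sort means put back, Tlr13 differed 1.91-fold between sorts, from a mean of both genotypes of 604 normalized counts in sort 1 to 316 in sort 3. It was at 616, 529, 325, 369 and 509 in Ppef2+/+ and at 591, 592, 306, 364 and 472 in Ppef2-/-. Both genotypes were thus low in sorts 3 and 4 and high in sorts 1 and 2. Of the 5719 genes with whole reads and a mean of at least 100, 2.64% had a larger ratio between their highest and lowest sort, and the median ratio was 1.204. The differences between sorts in Tlr13 were far larger than its differences between genotypes.

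Tlr9 went the same way, at 550, 472, 346, 404 and 451 normalized counts in Ppef2+/+ and 476, 463, 363, 374 and 423 in Ppef2-/-. The ratio of its highest to its lowest sort was 1.45, and 10.1% of those genes had a larger one. Tlr12 had a ratio of 1.36 (17.7% larger), Ticam1 of 1.25, Tlr2 of 1.21 and Myd88 of 1.17. Tlr4, whose mean is under 100, had a ratio of 2.26, from 26.6 in sort 3 to 60.2 in sort 2. Of these 7 members, 6 were lowest in sort 3 and 5 were highest in sort 1, compared to 24.4% and 22.9% of the genes with a mean of at least 100. Ticam1 was the member lowest in sort 2 instead. The genes share libraries, and there are only 5 sorts, so that these are descriptions of the sorts. The labels do not say what differed between them.

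**Figure D5:**
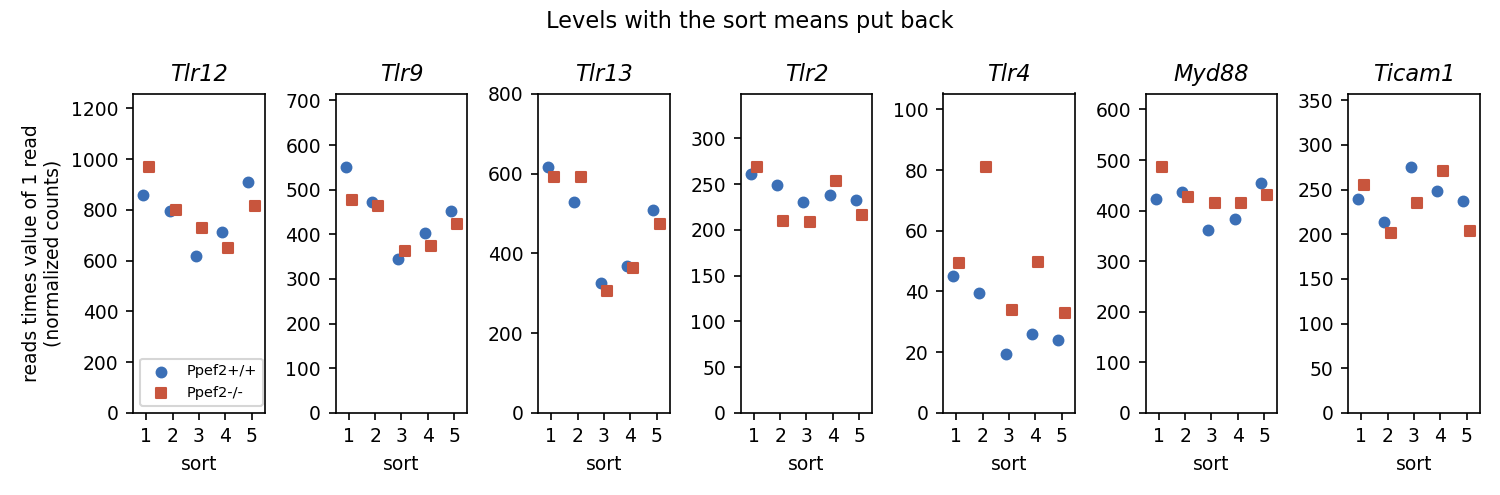
Levels of the 7 members with whole reads in each sort with the sort means put back, as reads times the value of 1 read, for Ppef2+/+ (blue circles) and Ppef2-/- (red squares). Tlr13 falls from 604 in sort 1 to 316 in sort 3 in the mean of both genotypes, while Myd88 and Tlr2 change little.

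The genes around the receptors were described with 6 lists of the pathway, which hold 88 genes, 79 of them in the table. Tank was the only one past an adjusted p of 0.05, and none was with the sort as a term. At an unadjusted p under 0.05 there were 17 of 79, or 21.5%, against the 17.5% of all genes given above. Of these, 11 were higher in Ppef2-/- (9.2% of all genes) and 6 were lower (8.33%). With the sort as a term there were 3 of 79 (Tank, Map3k8 and Tnfaip3), or 3.80%, against 4.29% of all genes. The share of called genes in the pathway was thus near that of the whole table. The median log2 fold change over the 79 genes was -0.01.

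The 16 kinases and transcription factors in the table included 5 of the genes called without the sort, or 31.25%, compared to 17.5% of all genes. With the sort as a term 2 were called, or 12.5%, compared to 4.29%. Tank, a scaffold that binds Traf proteins and Tbk1, was at 311 ± 8.32 normalized counts in Ppef2+/+ and at 363 ± 8.32 in Ppef2-/-, higher in 5 of 5 sorts. Its log2 fold change of 0.22 (SE 0.03) had an adjusted p of 0.018 in limma and of 0.995 with the sort as a term. Map3k8, the kinase Tpl2 that activates the Erk pathway, was at 349 ± 19.7 and 398 ± 19.7, with an adjusted p of 0.081, and was also higher in 5 of 5 sorts. Tbkbp1, an adaptor of Tbk1, and Tab1, a partner of the kinase Tak1, had log2 fold changes of 0.18 and 0.16. Irf5, a transcription factor downstream of Myd88, was at 2506 ± 94.2 and 2360 ± 94.2, lower in 4 of 5 sorts. Ikbke was not in the table.

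Of the 13 proximal signalling genes in the table, Irak4, the first kinase recruited to Myd88, had a log2 fold change of -0.11, and Ube2v1, a cofactor of ubiquitin chain formation, of -0.12. The unadjusted p of Irak4 in limma was 0.045 and that of Ube2v1 was 0.012. With the sort as a term they were 0.18 and 0.076. These 2 genes were 15.4% of the list, compared to 17.5% of all genes. Of the 19 chaperones, cofactors and endosomal genes, 3 had an unadjusted p under 0.05, or 15.8%, compared to 17.5% of all genes. With the sort as a term there were 0. Cd180, a relative of Tlr4 without its signalling domain, was at 1044 ± 45.6 and 1117 ± 45.6 normalized counts. Ap3b1, a subunit of an adaptor complex for endosomal sorting, was at 788 ± 16 and 833 ± 16. It did not overlap between genotypes, nor did Tank, Map3k8 and Trafd1 among the genes of the 6 lists, compared to 6.18% of all genes. Slc11a1, a metal ion transporter of phagosomes, was at 807 ± 24.5 and 767 ± 24.5.

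The 13 negative regulators in the table had a median log2 fold change of 0.06, and 4 of them had an unadjusted p under 0.05, each with a higher mean in Ppef2-/-, compared to 9.2% of all genes. With the sort as a term this was 1 of 13, Tnfaip3, compared to 4.29% called in either direction. Tnfaip3, the ubiquitin-editing enzyme A20, was at 2490 ± 230 and 2756 ± 230 normalized counts. Its log2 fold change was 0.15, and it was higher in 3 of 5 sorts. Tnip1, a partner of Tnfaip3, and Tollip had log2 fold changes of 0.10 each, and Trafd1 of 0.06. Among 14 sensors of other families, the cytosolic RNA sensor relative Dhx58 had a log2 fold change of -0.16 and the peptidoglycan sensor Nod2 of -0.24. Their unadjusted p in limma were 0.012 and 0.023, and with the sort as a term 0.076 and 0.066. These 2 genes were 14.3% of the list, compared to 17.5% of all genes. The adjusted p of every gene in the lists other than Tank was above 0.05 in limma.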

How the data were processed

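RNA was sequenced from 10 libraries of sorted CD8+ cDC1. Per the paper's methods, the genome mm10 was aligned to by the authors with HISAT, whereas the submitters' processing notes name TopHat2 2.0.3. The authors counted reads per RefSeq gene in Partek 6.6, normalized with DESeq2, set values below 1 to 1 and removed genes with a mean under 10 in both genotypes. The deposited values are a signal of normalized counts, not raw counts. The step that removed the sort means is not given in the sources used here. All 10 columns were used.

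The members, gene lists, limits and tests were chosen with earlier results of these data known. All members were named, and from each pathway list the genes with an unadjusted p under 0.05 without the block, at most 5 by p. The limits of 1.5 on the ratio and of 100 on the mean were set after values were seen.

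Genotypes were compared with limma 3.58.1 (trend in eBayes) in R 4.3.3 on log2(value + 1). P-values were two-sided and adjusted after Benjamini-Hochberg across 10767 genes, without and with the sort as a replicate block. Libraries were paired by sort numbers that follow the order of the samples, and the equal sums join the same pairs. Single members were also compared by exact permutation. Whole reads were found by solving, in each sort, for read numbers that give both deposited values after 1 common amount per gene and sort is added, on pairs of steps that fitted 557 genes with a mean under 16. The criterion for the steps was changed after a first version had failed on simulated data. Genes with a value of 1000 or more (1140, Tlr3, Tlr11 and Unc93b1 among them) were not attempted, and 9 others were not solved. A read was worth 0.924 to 1.50 normalized counts in Ppef2+/+ and 0.464 to 1.37 in Ppef2-/-. Ratios have exact binomial intervals at 95%. The fits and the solution of reads were tested on simulated data. Coordinates and lengths are from GENCODE M21 on GRCm38, which is mm10. Sequences were not used here. Alternatives were the block, pseudocounts, filters, scalings, eBayes without a trend, voom on whole reads, the sort means put back, and each library or sort left out.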

Additional observations from a re-analysis of the deposited data

How the results depend on the processing

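No member passed an adjusted p of 0.05 in limma in the alternatives run. The log2 fold change of Tlr4 stayed positive in all 25 alternatives that kept it, from 0.46 to 0.82, with adjusted p from 0.068 to 1.00. A filter on a mean of at least 50 removed Tlr4. Among the values of single members under alternatives, 242 kept and 8 changed their sign. Tlr12 was at -0.0216 without sort 1 and at -0.0214 without sort 3, and ranged from -0.0216 to 0.0717 over the libraries and sorts left out. Tlr13 was at 0.0024 without sort 1, at 0.0114 without sort 5 and at 0.0529 with voom on whole reads, with a range from -0.0654 to 0.0114 over those left out. Unc93b1 was at -0.0029 without the Ppef2+/+ library of sort 3, at -0.00053 without its Ppef2-/- library and at -0.0330 without the whole sort, and ranged from -0.0330 to 0.0707. The cause was not tested.

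The count of all genes past the adjusted p was 103. It was 193 without a trend in eBayes, 1 with the sort means put back and 1 with voom on whole reads. With the replicate block it was 1, and with voom and the block 3. It ranged from 0 to 192 when libraries or sorts were left out, with 0 without sort 2 and 192 without sort 5, and was 1 to 23 without a single library. Tank, the 1 gene of the pathway lists past it, was lost with the replicate block, with the sort means put back and with both voom fits (0 genes), and the count over the lists ranged from 0 to 2 when libraries or sorts were left out, with 2 without sort 4. It was 0 without sort 2 or 3, without the Ppef2+/+ library of sort 2, 3 or 4, and without the Ppef2-/- library of sort 2, 3, 4 or 5. The block changed no call of a member by adjusted p, while Tlr3 had an unadjusted p of 0.036 without it and 0.14 with it. The count of members with 1 direction in every sort was 1 to 2 when sorts were left out. Without sort 2 Tlr13 joined Tlr4, without sort 3 Tlr9 did, and without sort 4 Tlr3 did. Of the 2 members with an exact p under 0.05 over all libraries, Tlr4 and Tlr9, 0 were left with the sort means put back. The test then takes in the spread between sorts and ignores the pairs.

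Depth limits Tlr4 most, with 477 reads over 10 libraries, and no reads are given for Tlr3, Tlr11 and Unc93b1.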
